A study of Mus musculus with 4 samples.

Results

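Among the small RNAs recovered with PIWIL1 from adult mouse testis, 21536 of 1954306 distinct sequences of 26 to 33 nt had a complementary partner in the same data (1.1%). A sequence belonged to this set when the exact reverse complement of its first 20 nt lay inside another sequence of 26 to 33 nt, whatever either one's read count. These sequences took 0.936% ± 0.00522 (SD, n = 2 libraries) of all reads of that length. Replicate 1 had 38334 of 4077498 such reads, or 0.940% (exact Clopper-Pearson 95% interval 0.931% to 0.9495%). Replicate 2 had 55379 of 5937123, or 0.933% (0.925% to 0.941%) of its reads. Both shares use 1 member list made from the pooled libraries, so they are not independent, and with each library searched alone the shares were 0.430% and 0.656% of reads. Requiring 2 reads of a sequence left 668 members. These intervals cover counting error only, since reads without molecular identifiers are not independent molecules.

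Both libraries came from wild-type C57BL/6J testes at 10 weeks of age, and RNA bound to PIWIL1 was pulled down with an antibody before small RNA sequencing. The labels do not say whether the libraries came from separate animals, so each SD gives the spread between 2 libraries and may be technical. A control pull-down was not analysed here, and testis RNA libraries from Piwil1+/- and Piwil1-/- mice at post-natal day 23, 1 of each, were not used here. Since both small RNA libraries belong to 1 group, no test between groups was made. A comparison of 2 values against 2 cannot give an exact two-sided permutation p under 0.333, so differences are set against the spread between libraries.

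PIWIL1, also called MIWI, is a PIWI-family Argonaute protein of spermatocytes and round spermatids that carries pachytene piRNAs, most of which begin with uridine (1U). In the ping-pong cycle, a PIWI protein guided by one piRNA cuts a complementary transcript, and the cut leaves the 5′ end of a new piRNA. The 5′ ends of such partners overlap by 10 nt, and a 1U guide leaves adenine at position 10 of its partner (10A). PIWIL1 itself is an RNA-cutting protein, while most pachytene piRNAs come from long single-stranded precursors that are poor in transposon sequence.

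The sequences below show the kinds of pair found, and each is the most abundant sequence at its 5′ end, written 5′ to 3′ with T for U. Capitals mark the stretch between the 5′ ends of the partners. They are complementary throughout in this first set. The first set holds the member 5′ ends with the most reads, each beside its strongest partner, because they carry most of the reads of their pairs.
Abundant end 1: TATAAACAACACTGCTGTATGAGAcaggc
Partner of end 1: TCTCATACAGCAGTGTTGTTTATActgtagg
Abundant end 2: TAAGAACTACATGAATCTCTGAGGActat
Partner of end 2: TCCTCAGAGATTCATGTAGTTCTTAaaac
Abundant end 4: TAGCAGGATGTTTTTGGATTCAGGtctct
Partner of end 4: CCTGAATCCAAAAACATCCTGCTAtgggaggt
Abundant end 5: TGAATGTCCGTACAGACGTGTGAGAATTga
Partner of end 5: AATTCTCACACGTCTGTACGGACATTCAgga

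The second set holds pairs whose weaker arm had the most reads, shown because both arms recurred in both libraries. The label balanced stands for this choice and not for equal reads. Over both libraries the arms of pair 1 had 115 and 54 reads, and those of pair 4 had 32 and 16. Arms of pairs 2 and 5 were closer, with 63 and 44 reads, and 16 and 12. The capitals pair without a mismatch in pairs 2 and 4, with 1 mismatch in pair 5, and with 6 in pair 1, whose partners pair over the 20 nt that the rule asks for.
Balanced pair 1, stronger arm: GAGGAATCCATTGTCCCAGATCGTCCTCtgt
Balanced pair 1, weaker arm: TTTCAGGTTCTGGGACAATGGATTCCTCgc
Balanced pair 2, stronger arm: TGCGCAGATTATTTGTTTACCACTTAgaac
Balanced pair 2, weaker arm: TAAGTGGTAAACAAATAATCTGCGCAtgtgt
Balanced pair 4, stronger arm: TTTTATATTATTTGTGACTAttttgaaggt
Balanced pair 4, weaker arm: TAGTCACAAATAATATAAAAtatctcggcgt
Balanced pair 5, stronger arm: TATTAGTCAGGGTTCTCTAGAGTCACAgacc
Balanced pair 5, weaker arm: TGTGACTCTAGAGAACCCTGACTAATGtat

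The third set holds ends placed opposite each other with the 10-nt overlap of ping-pong partners, found by joining overlapping sequences into contigs, which can also join related loci. Neither end of the pairs printed met the 20-nt rule, unlike most pairs of this kind, in which at least 1 end met it through some partner.
10-nt pair 1, stronger end: TGTGAATTCTctgacgttgaatgagtttc
10-nt pair 1, weaker end: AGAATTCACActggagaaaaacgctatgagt
10-nt pair 2, stronger end: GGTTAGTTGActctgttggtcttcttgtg
10-nt pair 2, weaker end: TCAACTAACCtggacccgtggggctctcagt

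The last pair is a simple repeat, shown because such sequences can match many others by their repeat unit alone. The printed sequences have 2 mismatches in the capitals, and the pair met the rule through less abundant sequences of the same 5′ ends.
Repeat pair, stronger arm: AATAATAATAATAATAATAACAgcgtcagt
Repeat pair, weaker arm: TATTATTATTATTATTATTAATttattatt

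Simple repeats made up nearly all matches in a search for reversed, uncomplemented sequence, but few of the complementary set. The reversed search keeps base composition and found 603 of the 1954306 sequences (0.0309%). Of those 603, 581 were of low complexity, meaning at most 9 different 3-mers among the 18 in the first 20 nt (96.4%). Low complexity applied to 784 of the 21536 complementary sequences (3.64%) and to 0.705% of all sequences. Without them, 20752 complementary sequences stood against 22 from the reversed search. By reads, the reversed search took 0.0283% ± 0.00382 (SD, n = 2).

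The 20-nt limit is a choice of the rule. Complementarity that ended at 19 nt, just outside the rule, added 3650 sequences, and their 5′ ends began with U in 68.1% and had 10A in 37.2%. Complementarity of exactly 20 nt, just inside it, held 2853 sequences, with 62.6% 1U and 45.9% 10A. The excluded sequences had more reads, 21451 and 42941 in the 2 libraries against 4119 and 5686, and 1 end held 13647 and 32155 of them. Without that end, 7804 and 10786 reads were left.

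Sequences that share their first 20 nt were taken to share a 5′ end, and ends were also counted once each. Such sequences differ in length or in later bases. Abundant end 1 had 83 distinct sequences, more than its possible lengths, so many of these differ in bases. What made these differences was not tested. The 21536 sequences had 8432 different 5′ ends among 836458 in all (1.01%). Replicate 1 held 5082 of these ends and replicate 2 held 6118, and 2768 ends were in both (32.8%). Of the ends without a partner, 225827 of 828026 were in both libraries (27.3%). Most complementary ends were rare: 4781 had a single read over both libraries (56.7%), against 64.4% of ends without a partner.

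Counted once each, complementary 5′ ends had adenine at position 10 far more often than at the positions beside it, and more often than ends without a partner. The share was 42.4% in replicate 1 and 43.0% in replicate 2, a mean of 42.7% ± 0.401 (SD, n = 2). Positions 9 and 11 of the same ends had adenine in 24.2% ± 0.0563 and 26.6% ± 0.516. In ends without a partner, position 10 had adenine in 29.8% ± 0.279, between 26.4% ± 0.259 at position 9 and 27.7% ± 0.347 at position 11. The gap of the complementary ends at position 10 was many times the spread between libraries, and both libraries showed it. That spread comes from 1 member list made from the pooled libraries. With each library searched alone, the share was 46.0% in replicate 1 and 44.9% in replicate 2. The rule asks for no particular base at position 10, and it sets the overlap of the 5′ ends at 20 nt or more. Whether choosing ends by their opposite sequence favours this base in another way was not tested.

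Position 10 stood alone in this respect. Pooled over both libraries, 44.0% of complementary ends had A there, and from positions 2 to 9 and 11 to 20 the highest share was 36.6%, at position 5. Position 5 was also the richest in A in ends without a partner, at 39.4%. Guanine at position 10 was in 15.4% of complementary ends against 21.6% of the others, and U there was in 23.1% against 30.1%.

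Uridine at position 1, the usual first base of piRNAs, was less common among complementary ends. It was the first base of 64.9% and 64.0% of them in the 2 libraries, a mean of 64.5% ± 0.633 (SD, n = 2), against 78.5% ± 0.0244 of ends without a partner. Each other base was more common in first place among complementary ends: A in 14.9% ± 0.152 against 8.36% ± 0.207, C in 11.8% ± 0.501 against 7.77% ± 0.0819, and G in 8.84% ± 0.283 against 5.34% ± 0.101.

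Weighted by reads, the gaps in 1U and 10A were far smaller than those per end, while positions 9 and 11 differed more. The 1U share of complementary reads was 89.5% and 89.8%, a mean of 89.7% ± 0.270 (SD, n = 2), against 90.1% ± 0.0906 of the other reads. The 10A share was 30.7% and 30.3%, a mean of 30.5% ± 0.254, against 30.7% ± 0.205. Beside it, positions 9 and 11 had adenine in 30.2% ± 0.362 and 31.9% ± 0.199 of complementary reads, against 24.8% ± 0.283 and 26.6% ± 0.488 of the other reads. Position 10 therefore stood above both neighbours in the other reads and not in complementary reads. Abundant ends weigh more in these values, and rare ends in the values per end. The top complementary ends by reads, with 5146, 3534 and 2754 reads, all have A at position 9 and C at position 10. The next ends, with 2252 and 1728 reads, have T and C at position 9 and G at position 10. Shares without these ends were not calculated.

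The enrichment of 10A was largest among the rarest ends. Of the 4781 complementary ends with 1 read, 47.6% had 10A and 54.0% had 1U, against 29.8% and 75.8% of the 533502 other ends with 1 read. Of the 2738 ends with 2 to 9 reads, 40.2% had 10A and 66.3% had 1U. The 755 ends with 10 to 99 reads had 37.7% and 83.6%. The 158 ends with 100 or more reads had 31.01% and 94.9%, close to the 29.03% and 94.9% of the 15049 other ends of that abundance. Position 9 changed far less over the same classes, from 24.5% A in ends with 1 read to 21.5% in ends with 100 or more.

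First base and base 10 were linked. Complementary ends that did not start with U had 10A in 56.4%, against 36.2% of those that did. Ends without a partner differed less by first base, with 33.7% and 28.7%. The higher share in ends not starting with U was seen at each abundance, with 57.9% against 38.8% in ends with 1 read, 53.0% against 33.7% in ends with 2 to 9 reads, 54.0% against 34.5% in ends with 10 to 99 reads, and 50% against 30% in the few with 100 or more.

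Paired ends usually joined an end to a very rare partner. The rule linked 11463 ends, partners included, into 10084 pairs, and in 8872 pairs the weaker end had 1 read (88.0%). Both ends had 1 read in 3811 pairs (37.8%). Only 29 pairs had a weaker end with 10 reads or more (0.288%), and 1212 had one with at least 2 (12.02%). Both ends were in both libraries in 642 pairs (6.37%), and in 2520 pairs (24.99%) the ends were never in the same library. Most ends, 71.0%, had 1 partner, and 131 had 10 or more.

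Reads were very unevenly divided in the deeper pairs. The stronger arm was chosen by reads in one library and its share of the pair's reads was taken in the other. Over all pairs read in that other library, the median share was 50% in both, between many pairs with a single arm read. The share was 0 in 40.4% of 6574 pairs in replicate 1 and in 38.7% of 6671 in replicate 2, and it was exactly 50% in 10.8% and 12.1%. In pairs with at least 20 reads the median was 99.8% in replicate 1 (500 pairs) and 98.7% in replicate 2 (626 pairs), a mean of 99.2% ± 0.748 (SD, n = 2). The share was below 90% in 18 of the 500 pairs (3.6%) and 36 of the 626 (5.75%). Most weaker ends had 1 read, and a pair of 20 reads with 1 on its weaker arm has 95% on the other, so the minimum of 20 reads itself favours high shares.

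In uneven pairs the stronger arm had more 1U, and the weaker arm had more adenine at position 10. Arms were ranked by reads, and 1U also rose with reads in ends without a partner, from 75.8% with 1 read to 94.9% with 100 or more. In the 215 pairs 100-fold or more apart, the stronger arm had 1U in 92.6% and 10A in 32.1%, and the weaker arm had 1U in 47.0% and 10A in 75.8%. The 1U share of these stronger arms was thus not above that of abundant ends without a partner, while that of the weaker arms was below 75.8%. Arms were not compared with ends matched for reads, so the part of abundance in the 1U difference was not tested. In the 1118 pairs 10-fold to under 100-fold apart, the weaker arm had 10A in 66.2% and the stronger arm in 37.8%. The 4730 pairs that differed by less than 10-fold had 57.4% and 42.2%. Stronger arms in each of these classes were above the 29.8% 10A of ends without a partner. The 4021 pairs with equal reads had 48.7% over both arms. The 10A share of the weaker arm therefore rose with the imbalance, while its 1U share fell from 54.1% in the pairs under 10-fold apart to 47.0% in the most uneven.

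Neighbouring positions did not follow. In the most uneven pairs the weaker arm had A in 21.4% at position 9 and in 25.1% at position 11, against 75.8% at position 10. The pattern was present in each library by itself, using pairs 10-fold or more apart with both arms in that library. In replicate 1, 359 such pairs had 10A in 65.5% of weaker arms and 35.7% of stronger arms. In replicate 2, 614 pairs had 70.8% and 38.1%. Weaker arms began with U in 52.1% and 48.4%, and stronger arms in 88.9% and 89.9%. Pairs share ends and loci, so they are not independent of each other.

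The most abundant complementary ends illustrate this imbalance. Abundant end 1 had 2073 and 3073 reads in the 2 libraries, or 462 ± 33.3 reads per 1000000 insert reads (SD, n = 2), and its partner had 0 and 1 read. Abundant end 2 had 1391 and 2143 reads, 317 ± 31.4 per 1000000, against a partner with 0 and 1 read. Abundant end 4 had 898 and 1354 reads, 202 ± 17.0 per 1000000, against a partner with 1 and 0 reads. All 3 abundant ends start with U and lack 10A, while the partners of ends 2 and 4 have 10A and that of end 1 has G at position 10.

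Abundant end 5 had 615 and 1113 reads, 153 ± 32.4 per 1000000, and its partner, which has 10A, had 1 and 0 reads. The remaining end of the top 5 lies 3 nt upstream of abundant end 2 on the same strand, shares its partner, and had 949 and 1805 reads, 243 ± 59.8 per 1000000. In each of these 5 cases the strongest partner had a single read over both libraries.

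The pairs labelled balanced were at far lower levels, and their arms were not always even. Balanced pair 1 had 58 and 57 reads on the stronger arm, 10.6 ± 2.31 per 1000000, and 13 and 41 on the weaker, 4.62 ± 2.64. Its stronger arm starts with G and has 10A. Balanced pair 2 had 21 and 42 reads, 5.54 ± 1.55 per 1000000, against 16 and 28, 3.91 ± 0.736.

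In balanced pair 2 both arms start with U and the weaker one has 10A, and the arms' mean levels differed by about the spread between libraries. Balanced pair 4 had 14 and 18 reads against 7 and 9, or 2.91 ± 0.0832 per 1000000 against 1.45 ± 0.0416, and both arms have 1U and 10A. Balanced pair 5 had 4 and 12 reads against 7 and 5, so which arm was stronger changed between the libraries. The repeat pair had 329 and 411 reads against 24 and 15.

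The distance between partners' 5′ ends had no single preferred value within the range the rule can see. Of 10181 placements of end pairs, 776 overlapped by 20 nt, 885 by 25 nt and 1059 by 28 nt, the highest count (10.4%). Counts then fell to 726 at 30 nt and 25 at 33 nt, while the share of sequences long enough to show such an overlap fell from 93.1% at 28 nt to 67.4% at 30 nt and 3.68% at 33 nt. Overlaps under 20 nt are outside the rule. A duplex whose 3′ ends each overhung by 2 nt was formed by 354 of 22801 sequence pairs (1.55%), and a blunt one by 105 (0.461%).

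Beyond the required 20 nt, partners were often not complementary. Of the 8521 end pairs placed with a longer overlap and with matching sequences long enough on both sides to span it, 4856 were complementary over the whole of it (57.0%). Both kinds of pair showed the same peak of adenine: 43.5% 10A between 23.8% and 27.7% at positions 9 and 11 in the 6399 ends of fully complementary pairs, and 43.7% between 25.6% and 28.9% in the 4570 ends of pairs with a mismatch. Ends of low complexity were 1.61% of the first kind and 6.83% of the second. The part of simple repeats in the mismatches was not tested.

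Joining overlapping sequences into contigs made overlaps below 20 nt visible. The 346256 contigs, the longest of 364 nt, placed 70.8% of reads and 33.1% of distinct sequences. They placed 5114 complementary 5′ ends (60.6%). Opposite 5′ ends on a contig overlapped by 10 nt in 459 pairs. The mean was 242.4 at overlaps of 5 to 9 and 11 to 15 nt, where counts ran from 220 to 279. The excess was 1.89-fold, and no such excess was seen from 20 to 33 nt, where counts ran from 212 to 259. It was not calculated without ends of low complexity. Replicate 1 alone gave 238 pairs at 10 nt against a mean of 118.5 (range 105 to 137), and replicate 2 gave 286 against 137.9 (120 to 156).

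The pairs at 10 nt differed from their neighbours in base content. Their ends began with U in 63.1%, against 52.0% at the neighbouring overlaps (49.0% to 59.5%). Neither end began with U in 5.66% of pairs, against 21.02% (10.9% to 26.9%). At exactly this overlap the first base of each end pairs with base 10 of the other, so the 10A share equals the 1U share by construction. At the neighbouring overlaps 10A is free of that link and was 49.0% (43.4% to 55.2%).

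Complementary ends on contigs had an opposite end at 10 nt more often than at neighbouring overlaps. Of 1076 placed ends that were the weaker arm in every uneven pair they belonged to, 21.4% had an opposite end at 10 nt, against a mean of 11.1% at each neighbouring overlap, a 1.93-fold excess. For 3529 placed ends that were always the stronger arm, the shares were 3.91% and 1.55%, a 2.52-fold excess. The weaker ends had opposite ends more often, while their excess at 10 nt was the smaller. By definition a weaker end lies opposite an end with more reads, so these shares do not compare the classes on equal terms. Over all 5155 placed complementary ends the shares were 9.001% and 4.38%, a 2.05-fold excess. At least 1 end was a member by the 20-nt rule in 88.2% of the 10-nt pairs, which lies within the 66.8% to 96.0% at the neighbouring overlaps.

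By the reads of its weaker end, 10-nt pair 1 was the strongest of its kind, with 1982 and 3640 reads on one end (498 ± 110 per 1000000) and 296 and 516 on the other (72.1 ± 13.4). The stronger end starts with U, and the weaker has 10A. 10-nt pair 2 was nearly even, with 92 and 121 reads (19.3 ± 0.243 per 1000000) against 62 and 147 (18.2 ± 7.16). Its stronger end starts with G and has 10A, and its weaker end starts with U.

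Weighted by reads, complementary sequences were slightly shorter than the others. Reads of 29 nt were 25.8% ± 0.487 (SD, n = 2) of complementary reads against 20.7% ± 0.277 of the rest, and reads of 31 nt were 21.9% ± 0.657 against 24.7% ± 0.0142. Both groups peaked at 30 nt, the usual length of PIWIL1-bound piRNAs, with 35.7% ± 0.682 and 37.1% ± 0.0741. The commonest sequences of abundant ends 1, 2 and 4 are 29 nt long. They alone had 1537, 621 and 353 reads in replicate 1 and 2396, 929 and 582 in replicate 2. For the remaining ends of the top 5 the commonest sequence is 30 nt long. Length shares without these ends were not calculated.

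Paired ends formed small families more often than large ones. The pairs joined into 2540 connected groups, of which 969 were isolated pairs (38.1%) and 204 had 10 or more ends (8.03%). The largest had 70 ends. A group can hold ends from 1 locus or from repeated copies, and these cannot be told apart without genome positions, which were not determined here.

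Complementary sequences matched RefSeq promoter windows of the GRCm38.p6 assembly more often than others did. Each of the 32851 windows runs from 250 bases before a gene's start to 50 after it. Of the complementary sequences 722 matched a window exactly (3.35%), against 4395 of 1932770 others (0.227%). More than 1 gene's window was matched by 368 of the 722 (51.0%) and by 752 of the 4395 (17.1%). Only 3 complementary sequences matched a microRNA hairpin (0.0139%), against 368 others (0.0190%).

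One promoter is shown as an example of members on both strands, and it was chosen after its values were seen. It is not typical, with 19 reads on its weaker strand. A window of LOC108168693 had 21, while many windows with members on both strands had 1, such as those of Cd209c and Mif. Bckdhb encodes the E1 beta subunit of the branched-chain keto acid dehydrogenase, which breaks down branched-chain amino acids. Members lay in the stretch from 160 bases upstream to the start and just beyond it. The upstream part is chr9:83948621-83948780 on the plus strand of GRCm38.p6, and capitals mark the 70 bases covered on both strands.
Bckdhb upstream: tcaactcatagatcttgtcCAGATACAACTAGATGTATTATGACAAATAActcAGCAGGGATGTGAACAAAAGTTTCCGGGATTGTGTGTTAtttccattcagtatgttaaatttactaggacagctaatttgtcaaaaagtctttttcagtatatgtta

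In the Bckdhb window, 8 member 5′ ends read in the direction of the gene and 13 in the other direction. The strongest sense end, 160 bases upstream, had 5 reads, and the strongest antisense end, just past the gene's start, had 13. Both of these ends lie outside the capitals, so the capitals do not show partners for them. All of these are low counts, and other copies of the sequence in the genome were not searched for.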

How the data were processed

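The deposited small RNA tables hold the read count of each distinct raw read of up to 50 nt, adapter included. Bowtie, STAR and the build mm10 are named in the submitters' processing notes, without a role or version. The table of RNA libraries was not used here.

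Inserts were the bases before the first exact match to the first 10 nt of the 3′ adapter, which was read from the data as the commonest stretch after 30-nt inserts. Reads totalled 4836797 and 6408274. Levels are reads per 1000000 insert reads. A pair was a member 5′ end and the 5′ end of a partner. Contigs were grown greedily from 21-mers with at least 2 reads, and opposite ends were counted at overlaps of 1 to 40 nt. Sequences from RefSeq (GRCm38.p6) were matched exactly.

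Scripts ran in Python 3.11.15 with numpy 2.4.6 and scipy 1.17.1 and were checked on simulated data. The members, lists and tests were chosen with earlier results of these data known. Named sequences were the 5 member ends with most reads, the 5 pairs, not of low complexity, and the 3 pairs at 10 nt with the strongest weaker end, and the 2 strongest members of low complexity. Each library was left out in turn, and the adapter match, stretch, read minimum, lengths, repeats, weights and contig settings were varied.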

Additional observations from a re-analysis of the deposited data

Results flagged for a closer look

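Complementary sequences also occurred outside the length range of piRNAs, in lengths that no comparison above uses. Of 228182 distinct sequences of 20 to 25 nt, 2161 had the reverse complement of their first 20 nt inside a sequence of 26 to 33 nt (0.947%), against 32 in the reversed search (0.0140%). They took 0.861% ± 0.0134 (SD, n = 2 libraries) of the reads of that length, and of the distinct sequences in a library 66.5% ± 1.14 had 1U and 32.1% ± 1.14 had 10A. Of 72920 sequences of 34 to 40 nt, 569 were complementary to a sequence of 26 to 33 nt (0.780%), against 25 in the reversed search (0.0343%). Those took 0.578% ± 0.0360 of reads, and of the distinct sequences 73.9% ± 0.335 had 1U and 37.2% ± 2.24 had 10A. Shares of sequences of these lengths without a partner are not given. These shares per distinct sequence cannot be set against the shares per 5′ end above.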

How the results depend on the processing

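Membership is bounded by depth, since 88.0% of pairs rested on a weaker end with 1 read. With 1 library alone, 6248 to 10304 sequences were complementary, at 0.430% to 0.656% of reads. Their reads had 84.9% to 89.6% 1U and 31.8% to 33.5% 10A, their ends had 44.9% to 46.0% 10A, and the 10-nt excess was 1.988-fold to 1.990-fold.

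A stretch of 18 nt gave 1.89% of reads, 90.2% 1U and 49.4% 10A by reads, and 8.15% of placements at 28 nt. One added end with 45802 reads was 23.9% of these reads and has 10A. A stretch of 24 nt gave 11525 sequences, 0.567% of reads, 91.9% 1U and 27.3% 10A by reads, 43.6% 10A by ends, and 15.1% at 28 nt. Requiring 2 reads gave 668 sequences, 0.0491% of reads, 65.9% 1U and 53.3% 10A by reads, 49.4% 10A by ends, a median of 66.7% on the stronger arm, 6.59% at 28 nt and a 2.20-fold 10-nt excess. Lengths of 29 to 31 nt gave 12049 sequences, 0.743% of reads, 90.2% 1U and 29.4% 10A by reads, 44.0% 10A by ends and a 2.07-fold excess. Without low complexity the values were 0.909% of reads, 90.8% 1U and 29.6% 10A. Partners sought in the same library gave 0.543% of reads, 87.3% 1U, 32.6% 10A by reads and 45.4% by ends. Counting each end once gave 64.5% 1U and 42.7% 10A.

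Weighted by reads of the weaker end, the 10-nt excess was 2.94-fold, and with 25-mers it was 1.70-fold. Chosen after seeing the data, 21-mers with 1 read gave 2.07-fold, or 6.22-fold weighted, and the weighted value without the 3 strongest pairs at each overlap was 2.80-fold. The 10A share of ends was also made a result after seeing the data. In every setting run, it was above the 29.8% of ends without a partner in the main setting. The share in ends without a partner is not given for the other settings. Adapter matches of 8 and 12 nt gave 21585 and 21450 sequences. No paired analysis was possible because the small RNA libraries form 1 group.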
